A study of Mus musculus with 3 samples.

Results

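Neuropeptide receptor genes were described in ribosome-bound RNA from the cerebral cortex of mice in which an interneuron driver tags ribosomes. The members were 47 genes in 19 peptide families, chosen by symbol from a list of known receptors, and 47 of 47 were found among the 32531 gene symbols of the count files. The adult mice were all Htr3a-Cre (NO176)::Rosa26-LSL-EGFP/Rpl10a. Cre is driven by Htr3a regulatory sequence. In any cell that has at some time made Cre, a stop cassette at Rosa26 is lost and the ribosomal protein Rpl10a is made with an EGFP tag. Polysomes carrying the tag were captured from homogenised whole cortex with antibodies to EGFP, an assay called translating ribosome affinity purification (TRAP). All 3 libraries, replicates 1, 2 and 3, are immunopurified samples of 1 group. No untagged or unpurified sample was analysed here, so no enrichment can be given. The labels do not say whether replicates are separate animals or pools, so the p-values rest on a spread between samples that may be only technical. In bulk RNA, fewer cells of a type and less RNA per cell cannot be told apart.

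Most neuropeptide receptors are G protein-coupled receptors with 7 membrane-spanning helices. Those coupled to Gi/o proteins (somatostatin, neuropeptide Y, opioid receptors) generally lower excitability and transmitter release, those coupled to Gq proteins (cholecystokinin, bombesin, tachykinin, orexin receptors) raise intracellular calcium, and those coupled to Gs proteins (VIP, PACAP, corticotropin-releasing hormone receptors) raise cyclic AMP. Natriuretic peptide receptors are different: Npr1 and Npr2 are membrane guanylyl cyclases, and Npr3 clears the peptides. Cortical interneurons release many of the matching peptides, among them somatostatin, neuropeptide Y, VIP and cholecystokinin.

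Gene counts came to 13951332 to 14461053 per library. Levels are given in TPM, counts divided by exon length and then brought to a common total over all genes, with SDs over the 3 libraries (n = 3). The purified RNA held markers of the Htr3a class of interneurons but also of other cells. The 8 GABAergic markers summed to 3902 to 4214 TPM and the 9 markers of the Htr3a class to 3378 to 4294 TPM. The 8 markers of the other large interneuron class, from the medial ganglionic eminence, summed to 8561 to 9767 TPM. Most of that sum was Sst, at 8248 ± 552 TPM. The 12 excitatory markers summed to 3435 to 3805 TPM, most of it Camk2a at 2542 ± 302 TPM. Oligodendrocyte markers (10 genes) summed to 286 to 483 TPM and endothelial markers (8 genes) to 4.75 to 8.06 TPM. Astrocyte markers (10 genes) summed to 410.5 to 498 TPM, most of it Slc1a2 at 370 ± 43.8 TPM. None of the markers of those lists had 0 counts in 3 of 3 libraries. Which cells a given receptor transcript came from was not tested.

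Of the 47 receptor genes, 32 (68.1%) reached 1 TPM in 3 of 3 libraries, against 57.6% of the 20414 protein-coding genes with a length. At least 10 TPM in 3 of 3 libraries was reached by 15 members (31.9%), against 38.2% of those genes. The median receptor stood at 4.45 ± 0.618 TPM, beside 4.49 ± 0.346 TPM for all protein-coding genes. By mean level, 17 members reached 10 TPM, 3 of them 100 TPM, 22 lay between 1 and 10 TPM and 8 lay below 1 TPM.

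Each gene was then set against a reference level, the median of the 13525 protein-coding genes with a count in 3 of 3 libraries, which was 16.9, 18.5 and 19.1 TPM in replicates 1, 2 and 3. The test was edgeR's quasi-likelihood test over 13660 protein-coding genes with at least 10 counts in total, with Benjamini-Hochberg adjustment and a threshold of 0.05. Of the 41 members with enough counts, 11 (26.8%) were above the reference, where 44.2% of all tested genes were, and 27 (65.9%) were below it, where 43.2% were. The remaining 3, Oprl1, Trhr and Npy5r, passed in neither direction. Without the correction for length, the count above fell to 6. Leaving out replicate 2 lost the calls of Oprd1 (log2 ratio 0.40, adjusted p = 0.146 by edgeR) and Ntsr1 (-0.46, adjusted p = 0.185 by edgeR), leaving out replicate 3 that of Hcrtr2 (-0.38, adjusted p = 0.136 by edgeR), and leaving out replicate 1 put Npy5r below the reference (-0.66, adjusted p = 0.0250 by edgeR).

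**Figure D1:**
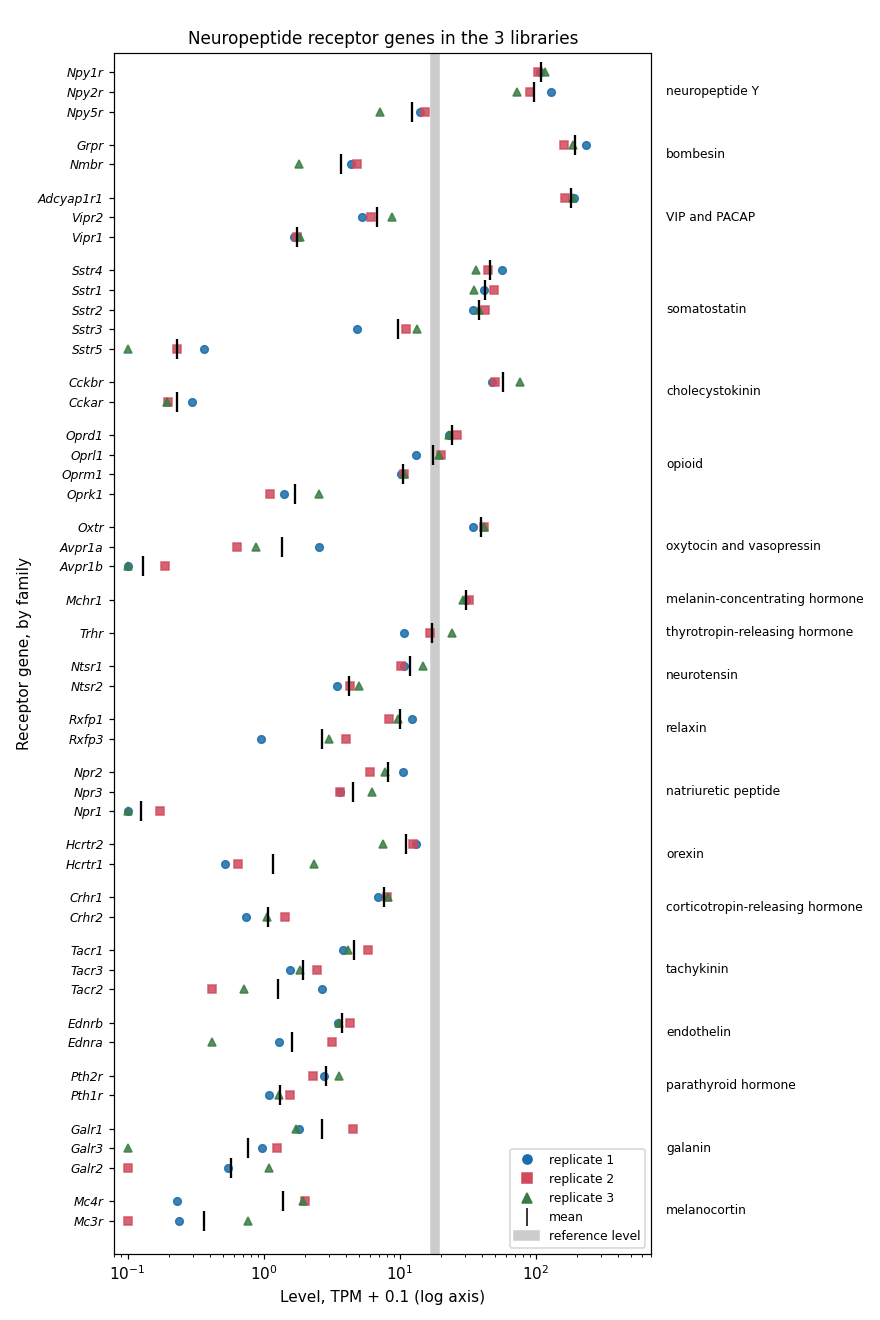
Level of each receptor gene in TPM plus 0.1 on a log axis, by peptide family, with 1 symbol for each of the 3 libraries and a bar at the mean. The grey band spans the reference level in the 3 libraries (16.9 to 19.1 TPM), and Grpr, Adcyap1r1 and Npy1r stand farthest to its right at means of 193, 180.1 and 109 TPM.

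Grpr and Adcyap1r1 were the receptor genes with the highest mean levels. Grpr encodes the Gq-coupled receptor for gastrin-releasing peptide and is known in cortex from VIP interneurons. It stood at 233, 160 and 186 TPM in replicates 1, 2 and 3 (193 ± 36.9), from 1618, 1135 and 1353 counts. That was 10.7-fold above the reference (log2 3.42, SE 0.096; edgeR, adjusted p = 2.75e-13), and its mean exceeded 92.7% of detected protein-coding genes. Replicate 1 was highest and replicate 2 lowest. The sums of the Htr3a class (4294, 3378 and 3505 TPM), excitatory (3805, 3435 and 3477 TPM), astrocyte, microglia and endothelial marker lists had the same order. Most of the excitatory sum was Camk2a (2885, 2426 and 2317 TPM) and most of the astrocyte sum Slc1a2 (420, 342 and 347 TPM). These 2 sums therefore say little about the other markers of their lists. The order of the Htr3a class sum was that of Vip (1220, 884 and 1021 TPM) and Npas1. The other markers of that list differed. Htr3a, Cnr1, Prox1, Adarb2, Nr2f2 and Sp8 were lowest in replicate 3, and Cxcl14 was highest there. The median of the Htr3a class list was 427, 318 and 296 TPM. The part of any of these cells in the level of Grpr was not tested. Nmbr, the receptor for neuromedin B and the other member of the bombesin family, stood at 4.27, 4.73 and 1.72 TPM, from 16 to 43 counts a library. Reads of Nmbr may not be its own alone, since 15.6% of its exon length lies over the antisense gene B230364G03Rik. Grpr exceeded Nmbr by a log2 difference of 5.82 (SD 0.82) in 3 of 3 libraries.

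Adcyap1r1, the PAC1 receptor for the peptide PACAP, stood at 191, 164 and 185 TPM (180.1 ± 14.4). It was 9.96-fold above the reference (log2 3.32, SE 0.084; edgeR, adjusted p = 9.28e-14). The ranges of Grpr and Adcyap1r1 overlapped, with Grpr higher in 2 of 3 libraries, so that no order between them can be given. With the principal transcript as length the order of their means turned, to 126 TPM for Grpr and 211 TPM for Adcyap1r1. It turned without correction for length too, where the log2 ratios to the reference were 2.58 for Grpr and 3.86 for Adcyap1r1. Adcyap1r1 and the VIP receptors belong to the secretin-like class of receptors. Vipr2, which binds VIP and PACAP alike, reached 5.20, 6.05 and 8.69 TPM (6.65 ± 1.82), with replicate 3 highest. Vipr1, the other VIP receptor, stood at 1.56, 1.65 and 1.73 TPM (1.65 ± 0.0836), nearly equal in the 3 libraries. Both were below the reference, 2.75-fold (edgeR, adjusted p = 0.000169) and 11.01-fold (edgeR, adjusted p = 1.81e-05), and Adcyap1r1 exceeded Vipr2 by a log2 difference of 4.77 (SD 0.39) with no overlap of ranges.

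The start regions of the 4 genes below are shown because the genes at the top of the order differ in sequence there, and because Npy1r and Npy5r are neighbours that start 9328 bases apart on chromosome 8 and run in opposite directions. Each window covers 250 bases before to 50 after the RefSeq start in GRCm38.p6, written 5′ to 3′ on the strand of the gene, with CG dinucleotides in capitals. Grpr lies at chrX:163549687-163549986 (minus strand, 6 CG dinucleotides), Adcyap1r1 at chr6:55451728-55452027 (plus strand, 17), Npy1r at chr8:66697172-66697471 (plus strand, 10) and Npy5r at chr8:66688045-66688344 (minus strand, 15).
Grpr: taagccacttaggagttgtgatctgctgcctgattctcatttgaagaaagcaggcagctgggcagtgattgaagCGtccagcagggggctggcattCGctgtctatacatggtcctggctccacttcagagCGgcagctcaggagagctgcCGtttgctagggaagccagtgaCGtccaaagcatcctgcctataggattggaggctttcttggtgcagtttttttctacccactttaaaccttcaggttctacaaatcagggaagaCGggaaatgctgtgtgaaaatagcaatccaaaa
Adcyap1r1: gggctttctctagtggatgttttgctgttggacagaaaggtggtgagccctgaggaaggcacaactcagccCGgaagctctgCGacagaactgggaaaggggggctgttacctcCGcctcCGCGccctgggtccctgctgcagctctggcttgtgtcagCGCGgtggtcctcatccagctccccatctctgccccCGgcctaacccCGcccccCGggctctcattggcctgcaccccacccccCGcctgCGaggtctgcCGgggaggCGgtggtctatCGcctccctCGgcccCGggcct
Npy1r: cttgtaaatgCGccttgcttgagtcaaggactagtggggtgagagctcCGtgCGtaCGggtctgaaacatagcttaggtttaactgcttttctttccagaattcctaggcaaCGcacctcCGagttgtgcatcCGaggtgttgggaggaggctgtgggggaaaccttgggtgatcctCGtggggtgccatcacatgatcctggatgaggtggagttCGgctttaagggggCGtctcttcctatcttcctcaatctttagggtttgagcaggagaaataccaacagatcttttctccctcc
Npy5r: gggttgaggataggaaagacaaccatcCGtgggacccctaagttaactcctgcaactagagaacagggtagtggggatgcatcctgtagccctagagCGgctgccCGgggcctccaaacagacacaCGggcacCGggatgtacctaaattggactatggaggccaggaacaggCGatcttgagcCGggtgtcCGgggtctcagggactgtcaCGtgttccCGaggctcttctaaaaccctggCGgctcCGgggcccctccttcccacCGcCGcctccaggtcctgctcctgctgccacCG
The 32851 windows of all genes, not limited to protein-coding genes or to 1 window per gene, had a median of 7 CG dinucleotides. The 37 members with a window had a median of 13, with 1 window each, the nearest to the start of the principal transcript. The 2 sets were thus chosen differently. Among members the median was 15 for the 15 genes at a mean of 10 TPM or more, 9 for the 18 between 1 and 10 TPM and 9.5 for the 4 below 1 TPM. Grpr, with 6, was under the median of all windows. The TATA motif TATAAA, searched on both strands, was in 4 of 37 member windows (10.8%) and 13.6% of all windows, and CCAAT in 15 (40.5%) and 37.4%. The cyclic AMP response motif TGACGTCA was in the window of Sstr2 alone among members (2.7%), against 1.79% of all windows. A match describes these letters and is not a measured site.

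Receptors for neuropeptide Y followed. Npy1r, the mainly postsynaptic receptor, stood at 107, 102 and 117 TPM (109 ± 7.56) and Npy2r, often a presynaptic autoreceptor, at 128, 89.4 and 72.4 TPM (96.6 ± 28.4). They were 5.99-fold (log2 2.58, SE 0.092; edgeR, adjusted p = 4.09e-12) and 5.40-fold above the reference (log2 2.43, SE 0.13; edgeR, adjusted p = 3.79e-10). Npy1r was nearly level over the libraries, whereas Npy2r was highest in replicate 1, and the ranges overlapped. Npy5r, whose start region lies beside that of Npy1r, was far lower at 13.9, 15.3 and 7.05 TPM (12.1 ± 4.42). Npy2r exceeded it by a log2 difference of 3.02 (SD 0.43) in 3 of 3 libraries. Npy5r did not pass the test in either direction (log2 -0.57, SE 0.27; edgeR, adjusted p = 0.0643), a call that depended on the libraries used, as given above.

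Somatostatin receptors fell into 3 tiers. Sstr4, Sstr1 and Sstr2 formed the top tier. Sstr4 stood at 55.8, 44.2 and 36.2 TPM (45.4 ± 9.84), Sstr1 at 41.3, 49.0 and 35.0 TPM (41.8 ± 6.99) and Sstr2 at 34.2, 41.9 and 38.3 TPM (38.1 ± 3.88). Their ranges overlapped and their order changed between libraries, and all 3 were above the reference, by log2 ratios of 1.34, 1.21 and 1.07 (SE 0.17, 0.15 and 0.15; edgeR, adjusted p = 8.21e-06, 6.29e-06 and 1.43e-05). Without the correction for length these ratios were -0.33, 0.056 and -0.015, and none was called. Sstr3, a receptor known from neuronal cilia, was in the middle at 4.70, 11.02 and 13.1 TPM (9.62 ± 4.39), with replicate 1 well under the others. It lay below the reference (log2 -0.94, SE 0.27; edgeR, adjusted p = 0.00487). Sstr5 had 2, 1 and 0 counts.

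Coding sequences of related receptors share short identical runs, which bears on whether reads can be told apart. The longest run shared by any of the 43 pairs within families had 41 bases, between Sstr3 and Sstr5 (coding bases 640 to 680 and 616 to 656). The median was 17 bases. The 4 opioid receptor genes share 1 run of 17 bases, shown in capitals within the longer runs of pairs. These are the sequences from the GENCODE transcripts.
Sstr3 and Sstr5: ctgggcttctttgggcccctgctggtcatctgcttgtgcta
Oprm1 and Oprd1: GACTACTACAACATGTTcac
Oprd1 and Oprk1: tccattGACTACTACAACATGTT
Oprk1 and Oprl1: GACTACTACAACATGTTtaccagca
No stretch of 50 bases in the principal transcripts was shared with another gene for 37 of 47 members, and the share exceeded 5% of the transcript for Galr3 (26.6%, with Gcat), Npr1 (6.55%) and Nmbr (5.94%). Reads of those 3 are therefore uncertain. The read length is not given in the sources used here.

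Of the 4 opioid receptors, 3 had a mean of 10 TPM or more. Oprd1, the delta receptor, stood at 22.6, 26.2 and 22.9 TPM (23.9 ± 1.96) and was just above the reference (log2 0.40, SE 0.15; edgeR, adjusted p = 0.0232), a ratio that was -0.20 with the principal transcript as length. Oprl1, the nociceptin receptor, stood at 13.1, 20.1 and 19.4 TPM (17.5 ± 3.87), close to the reference and with replicate 1 lowest. Oprm1, the mu receptor, had the smallest spread of the 34 members tested for variation, at 10.02, 10.6 and 10.6 TPM (10.4 ± 0.325). Its place below the reference (log2 -0.80, SE 0.17; edgeR, adjusted p = 0.000677) rested on the length used. The merged exons of Oprm1 cover 8037 bases and its principal transcript 2369, and with the latter the level was 23.1 TPM and the ratio turned to 0.36 (edgeR, adjusted p = 0.0430). Oprl1 above Oprm1, a log2 difference of 0.72 (SD 0.30), then turned to -0.71. Oprk1, the kappa receptor for dynorphins, was lowest at 1.31, 1.01 and 2.46 TPM, 11.5-fold below the reference (edgeR, adjusted p = 5.47e-06).

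Cckbr, the main cholecystokinin receptor of the brain, and Cckar, found mostly in the gut and some brain nuclei, were far apart in level. Cckbr stood at 47.2, 49.8 and 75.5 TPM (57.5 ± 15.6), 3.14-fold above the reference (log2 1.65, SE 0.13; edgeR, adjusted p = 3.18e-08), with replicate 3 apart from the others. Cckar had 2, 1 and 1 counts. Oxtr, the oxytocin receptor, stood at 34.5, 41.5 and 41.3 TPM (39.1 ± 3.97), 2.15-fold above the reference (log2 1.10, SE 0.12; edgeR, adjusted p = 1.27e-06). The vasopressin receptor Avpr1a was at 2.45, 0.532 and 0.778 TPM, from 18, 4 and 6 counts, and Avpr1b had 0, 1 and 0 counts. For Avpr1a, leaving out replicate 1 moved the log2 ratio to the reference from -3.82 to -4.76.

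Mchr1, the receptor for melanin-concentrating hormone, was above the reference too, at 30.5, 32.3 and 28.8 TPM (30.5 ± 1.76). Its log2 ratio was 0.75 (SE 0.16; edgeR, adjusted p = 0.000661), and 0.16 with the principal transcript as length (edgeR, adjusted p = 0.406). Trhr, the receptor for thyrotropin-releasing hormone, varied more, at 10.6, 16.6 and 24.1 TPM (17.1 ± 6.74). Its mean was close to the reference (log2 -0.11, SE 0.20; edgeR, adjusted p = 0.633), with the libraries on both sides of it. Ntsr1, a neurotensin receptor known from deep-layer excitatory neurons, reached 10.6, 10.1 and 14.7 TPM (11.8 ± 2.53). Its relative Ntsr2 was at 4.16 ± 0.757 TPM. Cckbr, Trhr and Ntsr1 were each highest in replicate 3. The excitatory marker Slc17a7, picked after its values were seen, was at 158, 169.8 and 260 TPM. The sum of the 12 excitatory markers was highest in replicate 1, but most of it was Camk2a, at 2885, 2426 and 2317 TPM. That sum therefore says little about the order of the other excitatory markers. The part of excitatory cells in these levels was not tested. Hcrtr2, an orexin receptor, stood at 13.01, 12.5 and 7.47 TPM (10.98 ± 3.05), and Hcrtr1 at 1.07 ± 1.03 TPM from 3, 4 and 17 counts. Ntsr1 and Hcrtr2 were below the reference (log2 -0.63 and -0.71; edgeR, adjusted p = 0.0124 and 0.00775).

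**Figure D2:**
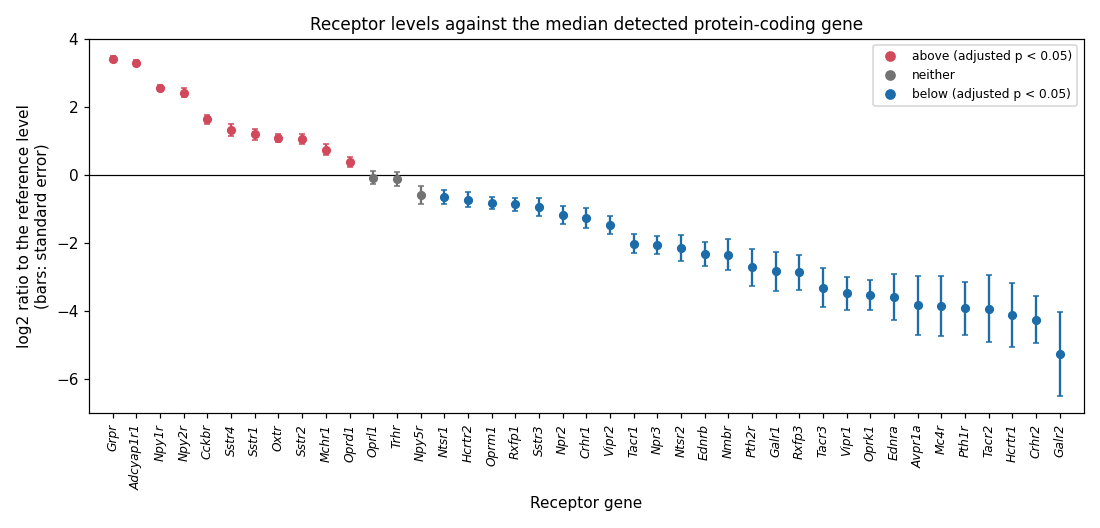
The log2 ratio of each receptor gene with at least 10 counts to the reference level (edgeR, 3 libraries). The bar is a standard error derived from the F statistic of the test. The 11 genes above the reference run from Grpr at 3.42 to Oprd1 at 0.40, and the 27 below it end with Galr2 at -5.26.

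With a mean below 10 TPM, the receptor for relaxin Rxfp1 led at 12.2, 8.17 and 9.54 TPM (9.98 ± 2.07), and Rxfp3, the receptor for relaxin-3, stood at 0.849, 3.91 and 2.92 TPM. Npr2, the guanylyl cyclase for C-type natriuretic peptide, was at 10.5, 5.94 and 7.64 TPM (8.02 ± 2.30), and the clearance receptor Npr3 at 3.55, 3.52 and 6.16 TPM, with overlapping ranges. Npr1 had 0, 1 and 0 counts. Crhr1, the main receptor for corticotropin-releasing hormone in cortex, stood at 6.78, 7.94 and 8.02 TPM (7.58 ± 0.693), above Crhr2 (0.969 ± 0.341 TPM) by a log2 difference of 2.89 (SD 0.36) in 3 of 3 libraries. Tachykinin receptors were low. Tacr1, the substance P receptor, stood at 3.74, 5.75 and 4.05 TPM (4.52 ± 1.08), Tacr3 at 1.85 ± 0.466 TPM and Tacr2 at 2.57, 0.315 and 0.613 TPM from 16, 2 and 4 counts.

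Endothelin receptors are best known from vessels and glia. Ednrb was at 3.40, 4.16 and 3.49 TPM (3.69 ± 0.418). Ednra stood at 1.19, 3.05 and 0.316 TPM, the widest relative spread among tested members, with the highest library 9.77 times the lowest after scaling. Without replicate 2, its log2 ratio to the reference moved from -3.58 to -4.47. Mural cell markers (8 genes) summed to 30.1, 31.1 and 34.8 TPM in replicates 1, 2 and 3, most of it Rgs5 at 19.3 ± 0.319 TPM, and endothelial markers to 8.06, 4.75 and 4.82 TPM. The part of vascular cells in the level of Ednra was not tested.

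Receptors of the galanin, melanocortin and parathyroid hormone families were low. Galr1, a Gi/o-coupled galanin receptor, was at 1.70, 4.40 and 1.62 TPM (2.57 ± 1.58), with replicate 2 apart. Pth2r stood at 2.67, 2.20 and 3.49 TPM (2.79 ± 0.650) and Pth1r at 1.21 ± 0.234 TPM. Mc4r, the receptor through which melanocortins act on feeding, stood at 0.129, 1.90 and 1.85 TPM from 1, 15 and 15 counts. Leaving out replicate 1 moved the log2 ratio of Mc4r to the reference from -3.84 to -3.24. Fewer than 10 counts in total were found for 6 members, Galr3, Mc3r, Sstr5, Cckar, Avpr1b and Npr1, which were not tested. Galr3 had 3, 4 and 0 counts and Mc3r 1, 0 and 5, and Galr2 was just inside the limit with 3, 0 and 7. Without replicate 2 its log2 ratio to the reference moved from -5.26 to -4.61, and without replicate 1 or 3 it had too few counts, as had Tacr2 without replicate 1 and Hcrtr1 without replicate 3. No member had 0 counts in 3 of 3 libraries. A count of 0 allows up to 0.209, 0.215 and 0.207 CPM (counts scaled to library size) in replicates 1, 2 and 3, for counting error only.

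Within families, 28 pairs of neighbours in the order of levels were compared by their log2 difference in each library. The order was the same in 3 of 3 libraries for 22 pairs, and for 21 pairs the ranges did not overlap. Pairs were ordered by the mean over these same 3 libraries, so agreement was partly built in. In the pairs with Cckar, Sstr5, Avpr1b, Npr1, Galr3 or Mc3r as the lower gene, that gene had fewer than 10 counts in total. An exact sign-flip test over 3 libraries cannot give less than 0.25, so no test was made. Overlapping neighbours were Npy1r and Npy2r, Sstr4 and Sstr1, Sstr1 and Sstr2, Npr2 and Npr3, Tacr3 and Tacr2, Galr3 and Galr2, and Mc4r and Mc3r. Across all members in order of mean level, Adcyap1r1 and Npy1r, Sstr2 and Mchr1, Mchr1 and Oprd1, and Oprd1 and Oprl1 were the neighbours above 10 TPM whose ranges did not overlap.

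Grouped by the G protein that the receptor is known to use, 10 of 16 Gi/o-coupled genes reached a mean of 10 TPM, 6 of 18 Gq-coupled and 1 of 10 Gs-coupled. The summed levels were 442 ± 30.4, 353 ± 31.6 and 212 ± 15.5 TPM. The Gi/o sum was spread over many genes, the highest of them Npy1r at 109 TPM. Grpr made up 193 TPM of the Gq sum and Adcyap1r1 180.1 TPM of the Gs sum, so that the latter rested mostly on 1 gene. Of 12 genes for G protein alpha subunits, 11 were above the reference level, where 44.2% of all tested genes were. Gnai1 was highest at 2055 ± 199.9 TPM, and Gna14 was below the reference level at 0.959 TPM. Among 15 genes for accessory and desensitising proteins of receptors, 6 were above the reference level and 7 below it. Of all tested genes 44.2% were above and 43.2% below, so this split was near that of genes in general. Levels ran from Gprasp1 at 226 TPM to Mrap2 at 2.36 TPM. All 3 Ramp genes, whose products partner receptors of the secretin-like class, were among the 7, at 6.87, 5.63 and 6.20 TPM.

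Receptors and the precursors of their ligands were present at very unequal levels, and the direction differed between families. The summed ligand genes exceeded the summed receptor genes in 3 of 3 libraries for 9 of 19 families, the receptors exceeded the ligands for 9, and the melanocortin family was mixed. The ligand excess was 87.7-fold for cholecystokinin, 80.7-fold for tachykinins, 61.4-fold for somatostatin, 20.2-fold for parathyroid hormone, 17.0-fold for corticotropin-releasing hormone, 14.8-fold for neuropeptide Y, 14.1-fold for opioids, 5.59-fold for VIP and PACAP and 2.56-fold for endothelin. Sst stood at 8248 ± 552 TPM, Cck at 5019 ± 1063 TPM and Npy at 3217 ± 434 TPM. The tachykinin ligand sum was mostly Tac2 (595 ± 42.3 TPM), beside Tac1 at 17.5 ± 12.7 TPM. That of parathyroid hormone was mostly Pthlh (82.3 ± 9.72 TPM), with Pth2 at 0 counts in 3 of 3 libraries. The folds compare family sums and do not pair each ligand with its own receptor. They also compare RNA levels per length and not amounts of protein.

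The families with more receptor than ligand RNA included those of Grpr, Oxtr, Mchr1 and Trhr. Grpr at 193 TPM stood against Grp with 16 counts in each library (3.84 ± 0.0902 TPM) and Nmb with 28, 6 and 5 counts. The bombesin receptors exceeded their ligands 22.1-fold (log2 ligands minus receptors -4.47, SD 0.59). Oxtr at 39.1 TPM stood against Oxt with 0, 0 and 7 counts and Avp with 3, 3 and 6 counts. Mchr1 and Hcrtr2 had ligand genes, Pmch and Hcrt, with 0 counts in 3 of 3 libraries, peptides known from the hypothalamus. Trh was below Trhr in 3 of 3 libraries, with a log2 difference of -1.10 (SD 0.13), and both were lowest in replicate 1 and highest in replicate 3. The receptors for VIP and PACAP divided: the PACAP receptor Adcyap1r1 at 180.1 TPM faced the PACAP gene Adcyap1 at 12.8, 17.5 and 24.6 TPM, and the VIP receptors Vipr1 and Vipr2, both under 10 TPM, faced Vip at 1041 ± 169 TPM.

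**Figure D3:**
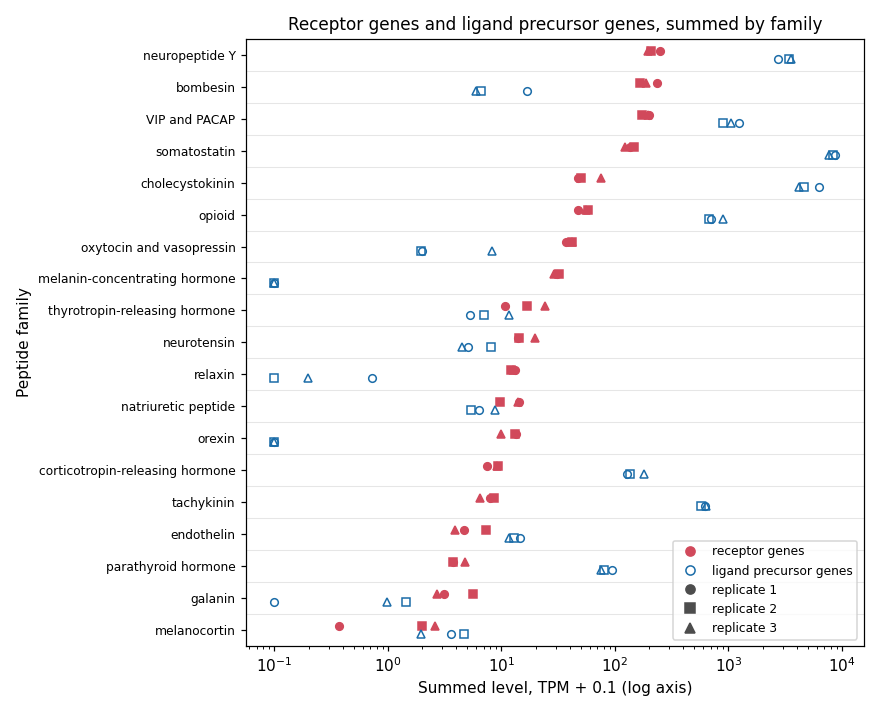
Summed level of the receptor genes (filled) and of the ligand precursor genes (open) of each peptide family in the 3 libraries, in TPM plus 0.1 on a log axis. Ligand genes lie to the right in 9 families such as somatostatin and to the left in 9 such as bombesin, where the receptors summed to 165 to 237 TPM and the ligands to 5.93 to 16.7 TPM.

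To see which receptors differed among the 3 libraries, the counts of each gene were set against library sizes scaled by edgeR's trimmed mean of M-values in a chi-square test, which took in 12949 genes averaging 1 CPM or more. The spread was beyond counting noise for 24 of 34 members tested (70.6%), against 74.3% of all genes tested, and the ratio of the highest to the lowest scaled library had a median of 1.54 for members and 1.41 for all genes tested. Of the 24, replicate 1 was highest for 7, replicate 2 for 9 and replicate 3 for 8. Without replicate 3 the count was 14 of the members tested. Grpr, Adcyap1r1, Npy2r and Trhr were called without each of the 3 libraries in turn. Cckbr was not called without replicate 3, where its ratio was 1.04 (adjusted p = 0.693, chi-square test). Ratios above 2 were found for 8 members: Ednra, Rxfp3, Nmbr, Galr1, Sstr3, Oprk1, Trhr and Npy5r.

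Npy1r and Npy2r, whose mean levels were close, differed in their spread, with ratios of the highest to the lowest scaled library of 1.13 and 1.82. Npy2r (128, 89.4 and 72.4 TPM) and Sstr4 were highest in replicate 1 and lowest in replicate 3, as were several marker sums: oligodendrocyte (483, 324 and 286 TPM), oligodendrocyte precursor (64.5, 53.7 and 53.0 TPM), GABAergic (4214, 4133 and 3902 TPM), striatal (149, 135 and 131 TPM) and medial ganglionic eminence (9767, 9293 and 8561 TPM). The part of any of these cells in the values was not tested. Members not called were Oprm1, Vipr1, Crhr1, Mchr1, Sstr2, Oprd1, Ednrb, Ntsr2, Pth2r and Tacr3. For Sstr2 the call depended on scaling, with an adjusted p of 0.0341 in the chi-square test when total counts replaced the scaled sizes.

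**Figure D4:**
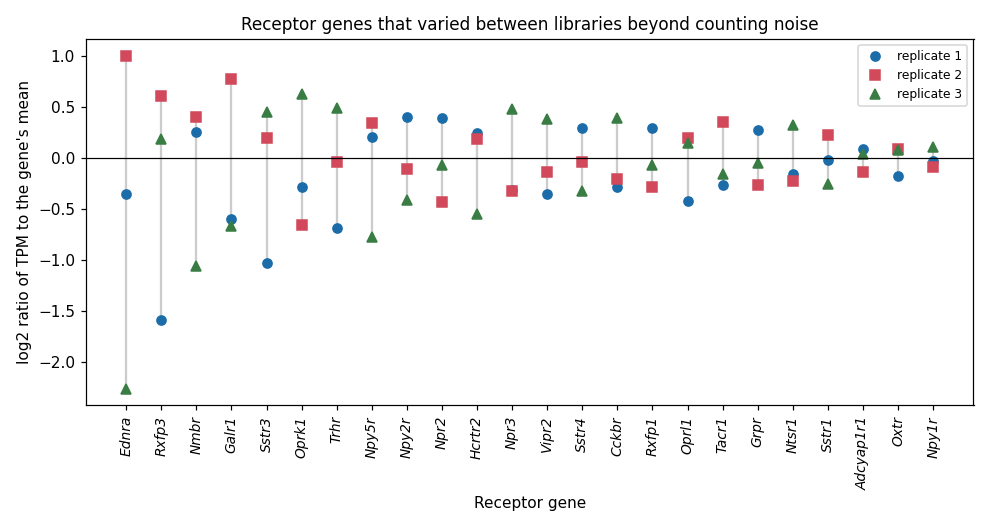
TPM in each library divided by the gene's mean, as log2, for the 24 receptor genes that varied beyond counting noise, ordered by the ratio of the highest to the lowest scaled library. The spread is widest for Ednra, whose highest library was 9.77 times the lowest, and narrowest for Npy1r at 1.13 times.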

How the data were processed

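The authors deposited raw counts, whole numbers by gene symbol, for each of 3 immunopurified libraries. The submitters' processing notes list STAR 2.0.0e, HTSeq and mm10 but not what each did. How strand was treated, the annotation and the counting mode: not given in the sources used here. Sense and antisense reads therefore cannot be separated. Lines naming no gene were left out. In replicates 1, 2 and 3, they held 11.8%, 11.0% and 13.1% of records as without a feature, 2.49%, 2.83% and 2.68% as ambiguous and 11.2%, 11.3% and 13.1% as not uniquely aligned.

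Exon lengths came from GENCODE M21 (GRCm38, the assembly of mm10). Of 32531 symbols, 23155 matched directly, 734 through an older name, and 8642 had no length. TPM used merged exons. The reference test followed edgeR 4.0.16's quasi-likelihood steps for an intercept, with the count expected at the reference level as offset. Standard errors (SE) were not given by edgeR. Each was the size of the log2 ratio divided by the square root of the test's F statistic, and is approximate. Log2 differences between genes used a pseudocount of 0.1 TPM. Alternatives were limma 3.58.1, DESeq2 1.42.0, other lengths, filters, scalings and reference levels, and each library left out. The software was R 4.3.3 and Python 3.11.15, with matplotlib 3.10.9, SciPy 1.17.1, NumPy 2.4.6 and pandas 2.3.3. Both tests were run on simulated data. Apart from planted changes, the simulated libraries differed by a fixed spread for the reference test and by counting noise alone for the chi-square test. The libraries here differed by more than counting noise, so these runs do not show how the tests behave on them.

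The members and lists were chosen with earlier results of these data known. Values in every library are given for members at a mean of 10 TPM or more and for the highest member of each family. Genes of other lists are named where highest or lowest of the list, or where a result turns on them. The Ramp genes and lower members given by library were picked after their values were seen. Files of different libraries were not identical, and pairs of libraries differed by 21.6 to 46.8 chi-square units per gene, where sampling noise gives about 1. Promoter windows came from RefSeq in GRCm38.p6, where 37 of 47 members matched.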

Additional observations from a re-analysis of the deposited data

How the results depend on the processing

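No paired analysis was possible because the 3 libraries form 1 group. Of the 11 members above and 27 below the reference level, the counts were 11 and 27 with limma, with DESeq2 and with DESeq2 size factors. Over the other settings the count above ran from 9 to 12 and that below from 20 to 34, except that 6 members were above without length correction. Leaving out each library in turn gave 10 to 11 above and 24 to 26 below. The number of varying members was 23 to 29 under other scalings and without the filter, and 14 to 19 with a library left out, where fewer samples enter the test. Members at 1 TPM numbered 31 to 35 and at 10 TPM 13 to 17, and neighbours in a constant order 20 to 25 of 28.

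Lengths turned the most directions. Without length correction the log2 ratios to the reference became -0.33 for Sstr4, -0.015 for Sstr2, -0.30 for Mchr1, 0.020 for Oprm1 and 0.30 for Rxfp1, and the differences of Oprl1 minus Oprm1 and Npr2 minus Npr3 became -0.37 and -0.13. With the longest transcript, Oprd1 was at -0.040, Oprm1 at 0.49 and Oprl1 minus Oprm1 at -0.73. With the principal transcript, these values were -0.20, 0.36 and -0.71. With the reference taken over genes at 1 TPM or more, Oprd1 was at -0.023, and over genes with any count, Oprl1 was at 0.42. The 13 members averaging under 1 CPM rested on at most 42 counts in all and are imprecise.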

Other observations

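Peptide receptor genes outside the 47 were mostly lower. Of 36 further receptors, 11 reached 1 TPM in 3 of 3 libraries, against 57.6% of all protein-coding genes with a length. Counts were 0 in 3 of 3 libraries for 10, among them Avpr2, Mc2r and Sctr. Of the 18 with enough counts to test, 16 were below the reference level and none above it (edgeR quasi-likelihood). Of all tested genes, 43.2% were below and 44.2% above. The highest were Uts2r, the urotensin receptor, at 30.9, 12.5 and 19.5 TPM and the receptor gene Gpr83 at 17.9, 23.6 and 16.9 TPM, whose ranges overlapped. Npsr1, the neuropeptide S receptor, stood at 11.7, 4.50 and 2.46 TPM, and Glp1r, the receptor for glucagon-like peptide, at 0.874, 1.59 and 10.01 TPM, each with a single library far above the others. Gpr83, Npsr1 and Glp1r were picked after their values were seen.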
